A study of Mus musculus with 10 samples.

Results

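The genes described here encode the class IA phosphoinositide 3-kinase (PI3K) subunits and the proteins that couple the insulin receptor to them: the regulatory subunits Pik3r1, Pik3r2 and Pik3r3, the catalytic subunits Pik3ca, Pik3cb and Pik3cd, the insulin receptor Insr, the receptor substrates Irs1 and Irs2, and the kinase Akt2. They were matched by gene symbol and are 10 of the 24454 genes in the count files. All 10 passed the filter on low counts that left 13568 genes for testing. RNA was taken from brown adipose tissue (BAT) of male mice on a C57BL/6N background, 2 months of age and fed ad libitum, with 1 RNA-Seq library per mouse. The labels mark the libraries of both genotypes as basal. The 5 Stat5Adipoq mice carried floxed Stat5 alleles and an Adipoq-Cre transgene, which deletes Stat5a and Stat5b in adipocytes, so that the other cells of the tissue keep both genes. The 5 controls were littermates with the floxed alleles and no Cre according to the methods, whereas the labels call them wild type. The growth hormone receptor signals through STAT5, and the study asked what the loss of this transcription factor in adipocytes does to BAT.

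Insulin binding activates the kinase of its receptor, which phosphorylates IRS proteins, and these recruit PI3K through the SH2 domains of its regulatory subunit. A regulatory and a catalytic subunit form one enzyme, in which the regulatory subunit both stabilises the catalytic subunit and restrains it until it is bound to a phosphorylated adaptor. The lipid product of PI3K brings AKT to the membrane, where it is activated and in turn promotes glucose uptake and lipid synthesis and keeps FOXO transcription factors out of the nucleus. In adipocytes AKT2 is the isoform best known for insulin-stimulated glucose uptake.

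Sequences are shown because Pik3r1 was the member called as changed and because STAT5 binds sites of the form TTCNNNGAA, which is its own reverse complement. Pik3r1 is transcribed from a distal start, which gives the full-length p85α protein, and from internal starts, which give shorter forms that keep the SH2 domains. The gene lies on the minus strand of chromosome 13 of GRCm38, from 101680761 to 101768217. Sequences are the 250 bases before a RefSeq start, read 5′ to 3′ on the strand of the gene, and capitals mark a match to TTCNNNGAA.
Pik3r1 distal start, chr13:101768218-101768467, minus strand: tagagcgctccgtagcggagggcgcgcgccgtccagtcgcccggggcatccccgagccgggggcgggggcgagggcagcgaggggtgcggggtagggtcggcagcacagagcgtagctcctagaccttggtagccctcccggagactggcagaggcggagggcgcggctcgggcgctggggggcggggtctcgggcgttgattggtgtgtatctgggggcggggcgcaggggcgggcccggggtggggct
Pik3r1 internal start, chr13:101692631-101692880, minus strand: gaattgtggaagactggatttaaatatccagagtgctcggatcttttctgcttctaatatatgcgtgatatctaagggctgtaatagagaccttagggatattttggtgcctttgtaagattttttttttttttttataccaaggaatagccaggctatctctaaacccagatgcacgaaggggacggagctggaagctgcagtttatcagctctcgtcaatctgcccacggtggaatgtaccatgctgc
Akt2, chr7:27591302-27591551, plus strand: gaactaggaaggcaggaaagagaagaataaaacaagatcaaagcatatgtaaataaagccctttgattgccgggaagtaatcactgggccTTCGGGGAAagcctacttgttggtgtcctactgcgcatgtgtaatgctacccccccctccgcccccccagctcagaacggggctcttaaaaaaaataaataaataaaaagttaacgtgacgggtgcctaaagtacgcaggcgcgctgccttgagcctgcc
The distal Pik3r1 window had a GC content of 76.4% and the internal window one of 42.4%, and neither held the letters. The paper had already reported lower Pik3r1 expression in Stat5Adipoq BAT from its RNA-Seq data. It reported the same in subcutaneous white fat after treatment with a β-adrenergic agonist. The paper also searched much further upstream for this consensus and reported putative high affinity STAT5 sites in the promoter region of Pik3r1. The short windows shown here do not cover that wider search. The match in front of Akt2 begins 160 bases before its start. RefSeq promoter windows, which run from 250 bases before to 50 bases after a start, were found for 9 of the 10 genes, and 1 of their 17 windows held TTCNNNGAA, against 2726 of 32851 windows (8.30%) of all genes. A match is a description of the sequence and not a binding site.

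Libraries held between 8488129 and 19514904 counts on genes. Values are CPM, counts per unit of TMM-scaled library size,, and a gene is called changed when its adjusted p is under 0.05 in edgeR's quasi-likelihood test over all 13568 genes. The labels were checked on the deleted genes. Stat5a and Stat5b together gave 164 to 215 CPM in controls and 37.6 to 41.8 CPM in Stat5Adipoq BAT. The 11 brown adipocyte markers summed to 18635 to 29799 CPM and 20479 to 26031 CPM. Ucp1 and Fabp4 had the highest means among them, 9004 and 8560 CPM in controls. Of the 11, 6 had a log2 fold change below 0 and 5 above 0, from -1.07 for Dio2 to 0.38 for Ppargc1a. Cox7a1 was the 1 called, with a log2 fold change of 0.29 (adjusted p = 0.040, edgeR's quasi-likelihood test), and 3 had an unadjusted p under 0.05. Markers of other cells differed between libraries. Skeletal muscle genes summed to 3943 CPM in control 3 and 364 CPM in control 5, against 37.4 to 98.7 CPM in the other libraries, and liver genes to 110 CPM in control 3, against 1.65 to 7.69 CPM elsewhere. In edgeR's quasi-likelihood test no gene of the macrophage, B cell, T cell, endothelial or fibroblast lists was called, against 2.71% of all genes. Of the 10, 4, 5, 8 and 7 genes tested, 0, 1, 1, 2 and 0 had an unadjusted p under 0.05. Over all genes that share was 15.2%. In the same order, 8, 1, 5, 0 and 5 of the genes tested had a log2 fold change below 0. Among 8 Schwann cell genes 1 was called higher, and 7 had a log2 fold change below 0. In bulk tissue, fewer cells of a type and less RNA per cell cannot be told apart.

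Of the 10 genes, 1 was called, the regulatory subunit Pik3r1, which fell by 53.0%. Over all genes tested, 368 of 13568 were called (2.71%), of which 178 were lower (1.31%) and 190 higher (1.4%). Pik3r1 and the catalytic subunit Pik3cb were the only members with no overlap between the libraries of the genotypes, as was the case for 4.39% of all genes, and the only members with an unadjusted p under 0.05, which 15.2% of all genes had. The median log2 fold change was -0.05 over the 10 members, -0.04 over the 9 members other than Pik3r1 and -0.0028 over all genes tested.

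Pik3r1 encodes p85α with its shorter forms and is the main regulatory subunit in most tissues. In the controls its mRNA was 152, 266, 158, 163 and 228 CPM in replicates 1 to 5. In Stat5Adipoq BAT it was 118, 105, 73.1, 92.4 and 64.5 CPM. The lowest control lay above the highest Stat5Adipoq library, and controls 2 and 5 were well above the other controls. The means were 193 ± 50.7 CPM (SD, n = 5) in controls and 90.7 ± 22.3 CPM (SD, n = 5) in Stat5Adipoq mice. The log2 fold change was -1.09 with a standard error of 0.19 and 95% limits of -1.51 and -0.67 (adjusted p = 0.011, edgeR's quasi-likelihood test). An exact two-sided permutation test over the 252 assignments of libraries to genotypes gave p = 0.0079, the smallest it can give. The call at 0.05 held in all 17 alternative fits, with log2 fold changes from -1.21 to -0.95 and adjusted p up to 0.039. Without control 3, the library with muscle and liver RNA, the log2 fold change was -1.15 (adjusted p = 0.0079). Pik3r1 was represented by 792 to 3231 reads per library.

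A list of cell markers was also lower in most Stat5Adipoq libraries. The 6 white adipocyte markers summed to 145, 111, 111, 109 and 126 CPM in controls 1 to 5, and to 115, 59.7, 74.6, 51.7 and 37.3 CPM in Stat5Adipoq replicates 1 to 5. In Stat5Adipoq BAT replicate 1 was the highest and replicate 5 the lowest, as for Pik3r1, whereas among controls the orders differed, since control 1 had the highest sum and the lowest Pik3r1 level. Of the 4 markers tested, 3 had a log2 fold change below 0, and Retn, which encodes the adipocyte hormone resistin, was called lower, from 86.0 to 29.7 CPM with a log2 fold change of -1.53 (adjusted p = 0.023, edgeR's quasi-likelihood test). It made up most of the sum in controls and was called in 6 of the 10 fits with 1 library left out (adjusted p up to 0.071). Lep, which encodes leptin, averaged 18.4 CPM in controls and 28.2 CPM in Stat5Adipoq BAT, a log2 difference of 0.62 that did not pass (adjusted p = 0.40 by the same test). Hoxc8 averaged 9.63 CPM in controls and 4.04 CPM in Stat5Adipoq BAT. Its log2 difference of -1.24 did not pass either (adjusted p = 0.088 by the same test). In Stat5Adipoq replicate 1 Hoxc8 was 9.05 CPM, inside the control range. Nnat had a log2 difference of -0.17 (adjusted p = 0.87 by the same test). Among the 2 not tested, Tcf21 was at 0 in all libraries and Hoxc9 had at most 1 count. The part of such cells in the Pik3r1 result was not tested.

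Pik3r2 and Pik3r3 encode the regulatory subunits p85β and p55γ. Pik3r2 had 28.4 to 41.6 CPM in controls and 34.2 to 37.1 CPM in Stat5Adipoq BAT, a log2 difference of 0.02 with 95% limits of -0.17 and 0.20. Pik3r3 had 7.82 to 14.6 CPM and 10.7 to 13.7 CPM, a log2 difference of 0.04 with limits of -0.27 and 0.35. The Stat5Adipoq libraries of both genes lay inside the control range, and control 3 was the lowest library for each. Neither gene passed the test (adjusted p = 0.96 and 0.94, edgeR's quasi-likelihood test). The intervals of both lie apart from that of Pik3r1, although the difference between the genes was not itself tested. Of the exon bases of Pik3r3, 24.3% also belong to the gene model Gm49337 on the same strand, which leaves its level uncertain.

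**Figure D1:**
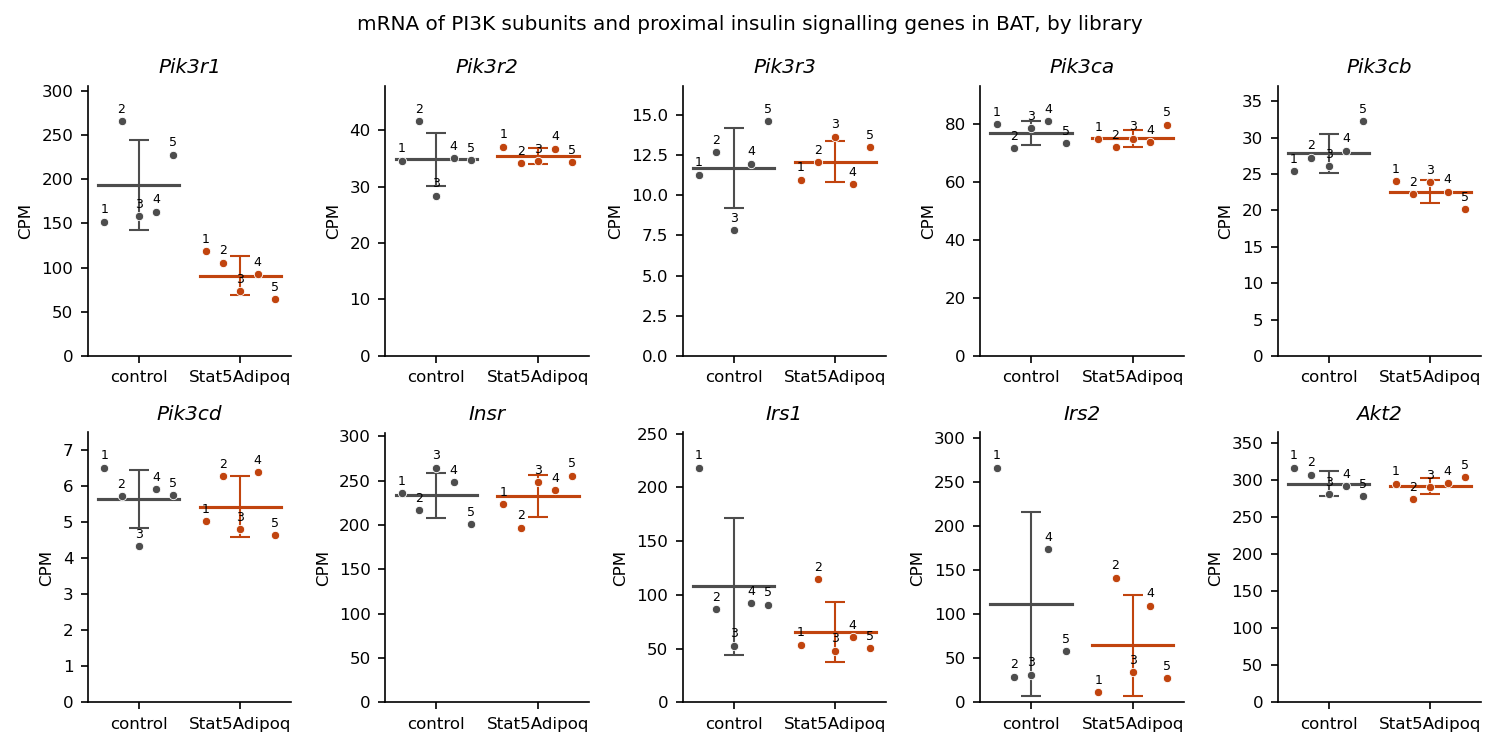
CPM (y axis, TMM-scaled, each panel from 0) of the 10 genes in each library, with controls in grey and Stat5Adipoq in orange. Each numbered point is 1 mouse, and bars give the mean and SD of 5 mice. The points of Pik3r1 (152 to 266 against 64.5 to 118 CPM) and Pik3cb (25.4 to 32.3 against 20.2 to 24.0 CPM) do not overlap between genotypes, and Irs1 and Irs2 have the widest spread within a genotype.

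None of the 3 catalytic subunits passed the test in edgeR, 1 of them, Pik3cb, had an unadjusted p under 0.05, and DESeq2 called that gene. Pik3ca, which encodes p110α, the isoform that carries most insulin signalling to PI3K, had 76.9 ± 4.08 CPM in controls and 75.1 ± 2.91 CPM in Stat5Adipoq BAT (SD, n = 5 each), with overlapping ranges. Its log2 difference of -0.04 had 95% limits of -0.15 and 0.08 (adjusted p = 0.82, edgeR's quasi-likelihood test), so that a change of the size seen for Pik3r1 lies outside them. Pik3cd, which encodes p110δ, the isoform best known from leukocytes, had 4.33 to 6.51 and 4.63 to 6.39 CPM, a log2 difference of -0.06 with limits of -0.37 and 0.25 and an adjusted p of 0.89 by the same test. It rested on 36 to 117 reads per library. The macrophage markers summed to 157 to 212 CPM in controls and 133 to 173 CPM in Stat5Adipoq BAT, and T cell markers to 3.99 to 8.62 and 1.76 to 5.96 CPM.

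Pik3cb encodes p110β, which can also be activated downstream of G protein-coupled receptors. It occupies bases 99038402 to 99140235 of chromosome 9 in GRCm38. The mRNA was 25.4, 27.2, 26.1, 28.2 and 32.3 CPM in controls 1 to 5. In Stat5Adipoq replicates 1 to 5 it was 24.0, 22.2, 23.9, 22.6 and 20.2 CPM. All 5 Stat5Adipoq libraries lay below all controls, but the distance was small, with control 5 the highest and Stat5Adipoq replicate 5 the lowest. The means of 27.8 ± 2.70 and 22.6 ± 1.54 CPM (SD, n = 5 each) gave a log2 fold change of -0.30 with a standard error of 0.08 and 95% limits of -0.47 and -0.13. The adjusted p was 0.067 in edgeR's quasi-likelihood test, above the threshold, and the exact permutation test gave p = 0.0079 before any adjustment. DESeq2 called it (adjusted p = 0.024), a test by which 4.86% of all genes were called, and the other alternatives did not, with adjusted p up to 0.19. Of the 50-base words of its longest transcript, 5.80% also occur in transcripts of Gm12992 or Gm12978.

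The regulatory to catalytic balance was computed per library as the summed level of Pik3r1, Pik3r2 and Pik3r3 divided by that of Pik3ca, Pik3cb and Pik3cd, each as CPM per kb of exon. It is given as a description without a test, since it contains Pik3r1. The ratio was 2.38, 3.84, 2.32, 2.43 and 3.10 in controls 1 to 5 and 2.28, 2.15, 1.80, 2.02 and 1.71 in Stat5Adipoq replicates 1 to 5. The genotypes did not overlap, but the nearest libraries, control 3 and Stat5Adipoq replicate 1, were almost equal. The mean ratio was 2.81 ± 0.656 in controls and 1.99 ± 0.239 in Stat5Adipoq BAT (SD, n = 5 each), a log2 difference of -0.48 between the geometric means. The regulatory transcripts thus remained more abundant than the catalytic transcripts in every library of both genotypes.

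The 2 sides of the ratio moved unequally. The regulatory sum was 31.3 to 50.7 CPM per kb in controls and 21.9 to 29.5 in Stat5Adipoq BAT, whereas the catalytic sum was 13.2 to 14.4 and 12.6 to 12.9 CPM per kb. Neither sum overlapped between the genotypes. Pik3r1 made up 65.4% ± 3.99 of the regulatory sum in controls and 46.5% ± 6.11 in Stat5Adipoq BAT (SD, n = 5 each). The share of Pik3r2 was 24.9% to 32.9% in controls and 39.8% to 49.7% in Stat5Adipoq BAT, at levels that overlapped as given above. These regulatory shares depend on the length used. The exon lengths were 7561 bases for Pik3r1 and 3165 for Pik3r2, while their coding lengths are 2294 and 2263 bases. On the catalytic side Pik3ca held 61.3% ± 2.76 and 64.7% ± 2.31, and Pik3cb 31.0% ± 2.67 and 27.3% ± 1.76. With Pik3r1 left out of the sum, the ratio was 0.774 to 1.18 in controls and 1.04 to 1.07 in Stat5Adipoq BAT, and its log2 difference was 0.15 with overlapping genotypes.

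**Figure D2:**
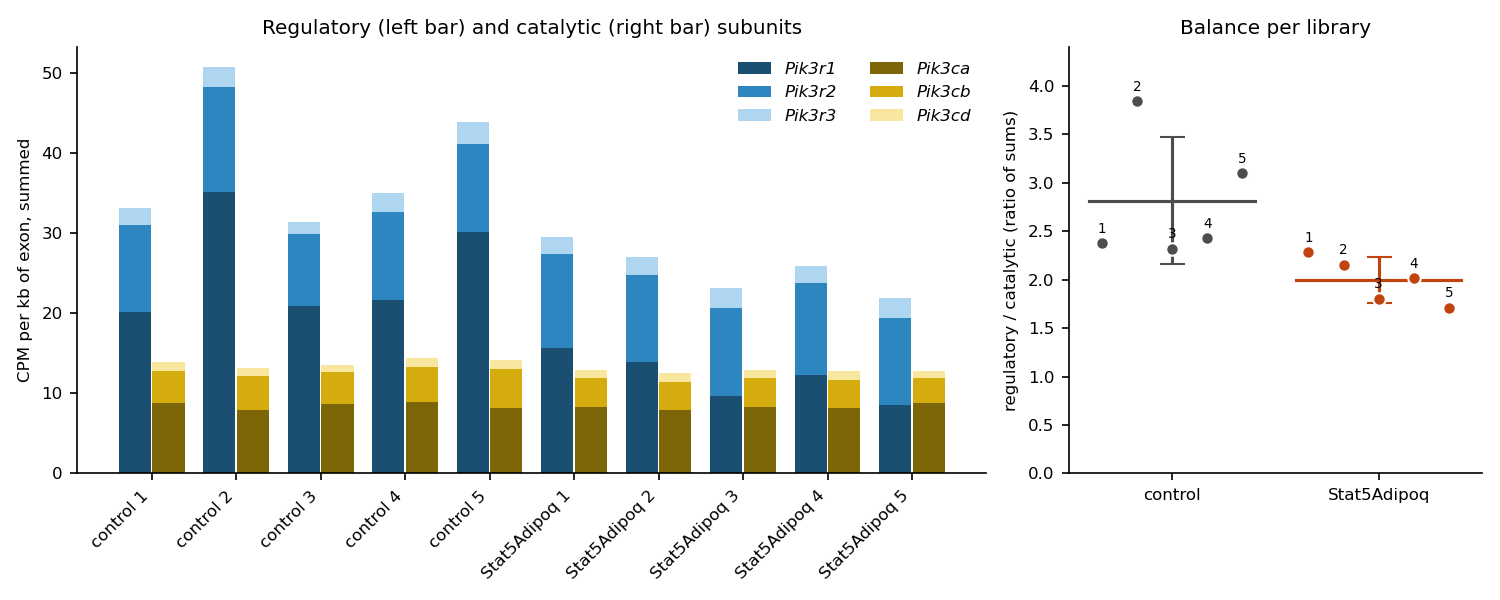
Left, CPM per kb of exon (y axis) summed over the regulatory subunits (blue bars) and the catalytic subunits (yellow bars) in each library, stacked by gene. Right, the ratio of the 2 sums per library, with numbered points for mice and bars for the mean and SD of 5 mice. The blue bars shorten from 31.3 to 50.7 in controls to 21.9 to 29.5 CPM per kb in Stat5Adipoq BAT through their Pik3r1 segment, and the ratio runs from 2.32 to 3.84 and from 1.71 to 2.28.

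Insr encodes the receptor itself. Its mRNA was 201 to 265 CPM in controls and 197 to 255 CPM in Stat5Adipoq BAT, with means of 233 ± 25.0 and 233 ± 23.3 CPM (SD, n = 5 each). The log2 difference of -0.0045 had 95% limits of -0.20 and 0.19 (adjusted p = 0.99, edgeR's quasi-likelihood test). The ranges of the genotypes nearly coincided.

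Irs1 and Irs2, the adaptors between receptor and PI3K, were the members that varied most among mice of one genotype. Irs1 lies on chromosome 1 of GRCm38, from 82233105 to 82291439, and Irs2 on chromosome 8, from 10984681 to 11008929. Irs1 was 218, 86.7, 52.7, 92.1 and 90.8 CPM in controls 1 to 5 and 53.7, 115, 48.2, 60.7 and 50.4 CPM in Stat5Adipoq replicates 1 to 5. Irs2 was 267, 29.1, 31.4, 174 and 58.3 CPM in the controls and 11.6, 142, 34.5, 110 and 27.3 CPM in Stat5Adipoq mice, in the same order. Controls 1 and 4 and Stat5Adipoq replicates 2 and 4 were the highest libraries of their genotype for both genes, and the genotypes overlapped for both. The SD of log2 CPM within a genotype was 1.47 for Irs2 and 0.64 for Irs1, larger than that of 99.6% and 98.5% of the 10152 genes with at least 50 counts on average, whose median was 0.14. The highest Irs2 library was 23.0 times the lowest, and in controls alone the factor was 9.15.

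Neither substrate passed the test of genotype. Irs1 averaged 108 ± 63.7 CPM in controls against 65.6 ± 27.9 CPM (SD, n = 5 each), a log2 fold change of -0.72 (limits -1.47 and 0.04), and Irs2 averaged 112 ± 105 against 65.0 ± 57.2 CPM, a log2 fold change of -0.79 (limits -2.35 and 0.78). The adjusted p was 0.36 for Irs1 and 0.68 for Irs2 in edgeR's quasi-likelihood test. Control 1 bore on both values: without it the log2 fold change was -0.30 for Irs1 and -0.19 for Irs2, and without Stat5Adipoq replicate 2 it was -1.02 and -1.31. With such a spread, the limits of both genes include a change as large as that of Pik3r1. The gene model Gm9747 on the opposite strand covers 30.9% of the exon bases of Irs1, and whether counting used the strand is not given in the sources used here.

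Akt2, the kinase downstream of PI3K, had the highest level of the 10 genes per length and one of the smallest spreads. It was 278 to 317 CPM in controls and 275 to 304 CPM in Stat5Adipoq BAT, a log2 difference of -0.01 with 95% limits of -0.13 and 0.10 (adjusted p = 0.94, edgeR's quasi-likelihood test). The ranges overlapped over most of their width. Its SD within a genotype, 0.069 on the log2 scale, was larger than that of 5.71% of the genes ranked, and the SD of Pik3ca, 0.067, was larger than that of 5.07%. Akt2 shares 16.0% of its 50-base words with the pseudogene Akt2-ps.

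**Figure D3:**
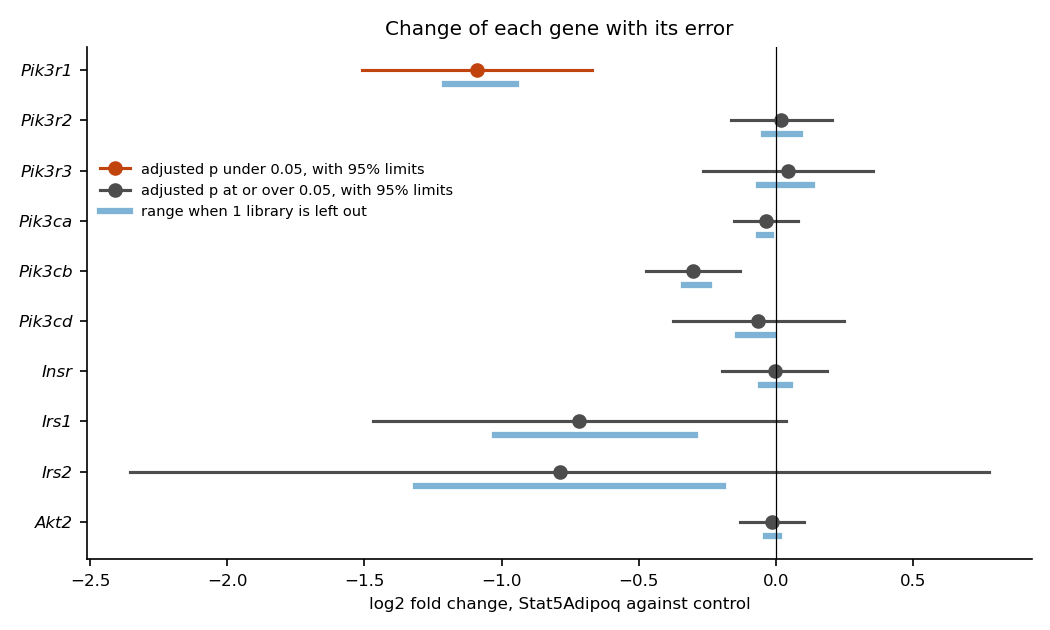
Log2 fold change of Stat5Adipoq against control (x axis) for each of the 10 genes, with points for the fitted value, thin lines for 95% limits and blue bars for the range when 1 library is left out. Pik3r1 (-1.09, limits -1.51 and -0.67) is the only gene in orange, with an adjusted p under 0.05, and the limits of Irs1 and Irs2 are the widest.

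Per kb of exon, the mean levels in controls ran in the order Akt2 (61.1 CPM per kb), Pik3r1 (25.6), Insr (24.9), Irs2 (17.7), Irs1 (11.8), Pik3r2 (11.0), Pik3ca (8.48), Pik3cb (4.30), Pik3r3 (2.22) and Pik3cd (1.06). The libraries of Pik3r1 (20.1 to 35.1 CPM per kb) and Insr (21.5 to 28.3) overlapped, and so did those of Irs2 (4.61 to 42.2), Irs1 (5.76 to 23.9) and Pik3r2 (8.97 to 13.1), so that their order is not set. The wide ranges of Irs2 and Irs1 also overlapped those of Pik3r1 and Insr above them and of Pik3ca below them, and that of Irs2 also overlapped Pik3cb. In Stat5Adipoq BAT the mean of Pik3r1 was 12.0 CPM per kb (8.53 to 15.7) and that of Pik3r2 was 11.2 CPM per kb (10.8 to 11.7). The ranges of the 2 regulatory transcripts thus overlapped in Stat5Adipoq BAT on this scale. This depends on the length used, since the exon union is 7561 bases for Pik3r1 and 3165 for Pik3r2 while their coding lengths are 2294 and 2263 bases, and in CPM without length the ranges lay apart, at 64.5 to 118 and 34.2 to 37.1.

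The 5 genes whose profile was most like that of Pik3r1 over the 10 libraries were Il18bp, Net1, Mfng, Igf1 and Trabd2b. Likeness was the root mean square difference of log2 CPM, each gene centred on its own mean, among 10151 genes, and it was 0.23 for Il18bp, 0.25 for Net1, 0.27 for Mfng, 0.28 for Igf1 and 0.29 for Trabd2b. Il18bp encodes a secreted inhibitor of interleukin 18, Net1 a RhoA exchange factor, Mfng a glycosyltransferase that modifies Notch, and Igf1 the growth factor induced by growth hormone. Their log2 fold changes were -1.28, -0.93, -0.79, -1.12 and -1.23. They were chosen for this likeness, so that their change is a description.

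**Figure D4:**
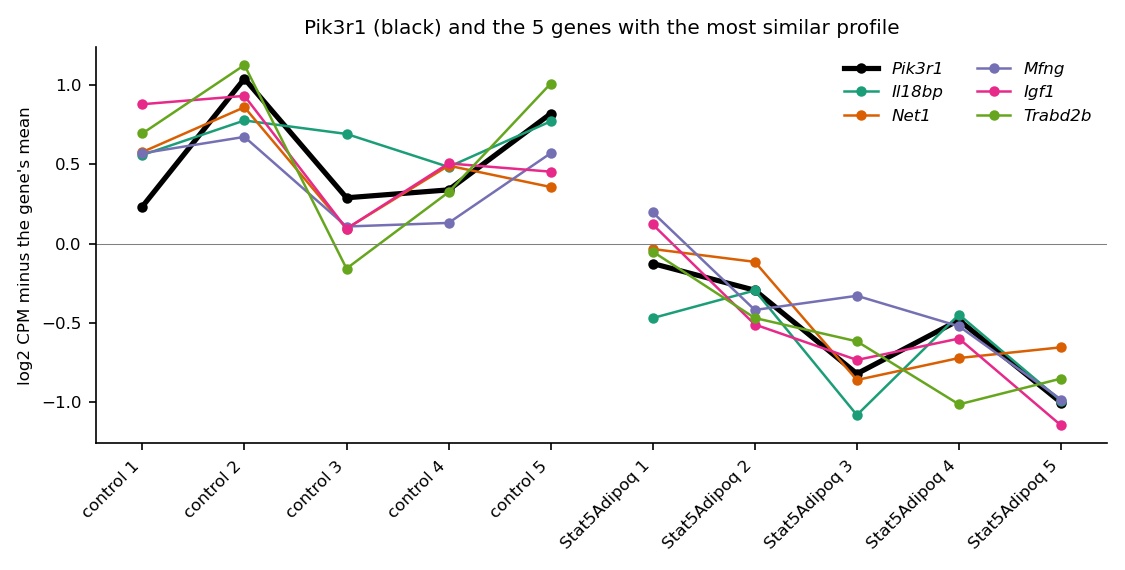
Log2 CPM minus the mean of the gene over all libraries (y axis) in each of the 10 libraries (x axis) for Pik3r1 in black and the 5 most similar genes in colours, with lines joining the libraries of one genotype only to guide the eye. All 6 genes are mostly above 0 in controls and mostly below 0 in Stat5Adipoq BAT.

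The other genes of the pathway were described from lists that cover further PI3K family subunits, receptors and adaptors, phosphatases and Akt inhibitors, and kinases with their substrates. Of 67 genes listed, 63 were tested, of which 1 was called lower and 1 higher, against 2.71% called among all genes. Their median log2 fold change was -0.0081, and 2 did not overlap between genotypes, against 4.39% of all genes. None of the 8 further PI3K subunits or of the 26 kinases and substrates tested was called in edgeR's quasi-likelihood test, while 1 and 4 of them had an unadjusted p under 0.05 and DESeq2 called 1, Tbc1d4 (adjusted p = 0.042). Over all 63 genes, 7 had an unadjusted p under 0.05, against 15.2% of all genes.

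The called genes were 2 phosphatases of the pathway, which moved in opposite directions. Phlpp1, which dephosphorylates AKT, was 52.7, 53.2, 40.0, 43.7 and 46.7 CPM in controls 1 to 5 and 62.9, 67.9, 52.8, 61.9 and 61.7 CPM in Stat5Adipoq replicates 1 to 5. It rose, with controls 1 and 2 and Stat5Adipoq replicate 3 close together and overlapping, and the log2 fold change was 0.38 with a standard error of 0.09 (adjusted p = 0.043, edgeR's quasi-likelihood test). Ptprf, a receptor tyrosine phosphatase that acts on the insulin receptor, was 4.12, 6.35, 6.73, 11.4 and 4.02 CPM in the controls and 3.52, 2.37, 3.05, 1.98 and 2.72 CPM in Stat5Adipoq mice, in the same order and without overlap. Ptprf rested on only 18 to 225 reads per library. It fell by 1.27 on the log2 scale with a standard error of 0.29 (adjusted p = 0.036, edgeR's quasi-likelihood test). These calls were close to the threshold. With 1 library left out they held in 4 of 10 fits for Ptprf (adjusted p up to 0.097) and 3 of 10 for Phlpp1 (up to 0.099), always in the same direction.

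The next pathway genes by p did not pass. Mlst8, a subunit shared by both mTOR complexes, had a log2 difference of -0.17 (adjusted p = 0.30) with genotypes that did not overlap, and Tbc1d4, the AKT substrate AS160 that controls GLUT4 traffic, had one of -0.21 (adjusted p = 0.13, all by edgeR's quasi-likelihood test). Among the further PI3K subunits, Pik3cg, which encodes p110γ, had -0.64 (adjusted p = 0.33), and its regulatory partner Pik3r5 had -0.47 (0.26). Pik3cg rested on 11 to 53 reads per library and Pik3r5 on 17 to 56. The log2 differences were 0.14 for Foxo4, 0.24 for Foxo3, -0.21 for Pde3b and -0.51 for Trib1. For Sh2b1, Gsk3b, Tbc1d1, Grb14 and Inpp5d, which complete the named genes, adjusted p was 0.54 to 0.59.

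**Figure D5:**
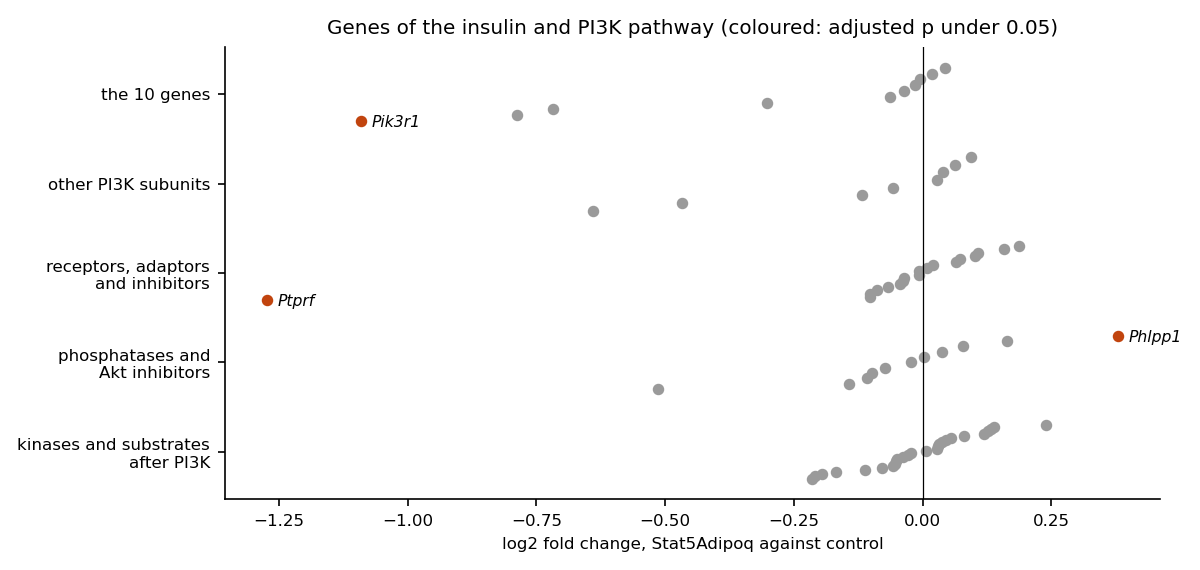
Log2 fold change of Stat5Adipoq against control (x axis) for the 10 genes and for the 63 other tested genes of the pathway, in rows by list, with 1 point per gene placed in rank order within its row. Orange points are called genes. Most points lie near 0, and Pik3r1 (-1.09), Ptprf (-1.27) and Phlpp1 (0.38) are called.

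Transcripts that respond to insulin signalling were examined on 2 lists. Of the FOXO targets, 14 of 15 were tested, and 1 was called lower, against 1.31% of all genes, Bnip3, which encodes a mitochondrial protein of mitophagy. It was 65.5 to 81.6 CPM in controls and 44.0 to 54.4 CPM in Stat5Adipoq BAT, a log2 fold change of -0.54 (adjusted p = 0.0024, edgeR's quasi-likelihood test), and it was called with any 1 library left out. The median of the list was 0.09, against -0.0028 over all genes, so that the called gene moved against the median of its list. Cat, which encodes catalase, was the other target without overlap, at 907 to 1061 CPM in controls and 1098 to 1172 CPM in Stat5Adipoq BAT, a log2 difference of 0.20 that did not pass (adjusted p = 0.062 by the same test). Of the 12 genes induced by insulin, all tested, 2 were called lower and none higher, against 1.31% and 1.4% of all genes, with a median of -0.14.

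Me1 encodes malic enzyme, which supplies NADPH for fatty acid synthesis. It was 772 to 1040 CPM in controls and 493 to 737 CPM in Stat5Adipoq BAT, a log2 fold change of -0.60 (adjusted p = 0.016, edgeR's quasi-likelihood test), and was called with any 1 library left out. Acacb, the acetyl-CoA carboxylase whose product restrains fatty acid oxidation, was 3573 to 3877 and 2345 to 3267 CPM, a log2 fold change of -0.44 (adjusted p = 0.019 by the same test, and 0.061 without Stat5Adipoq replicate 3). These lists were chosen with earlier results known, and other signals besides insulin act on their genes.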

How the data were processed

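RNA-Seq libraries came from BAT of 5 controls and 5 Stat5Adipoq males, and groups and replicate numbers were taken from the sample labels. According to the submitters' processing notes, the authors used STAR 2.5.0b and featureCounts 1.5.0-p1, and they deposited unnormalized counts per gene by Entrez identifier, with reads placed on GRCm38. A deposited comparison table with the authors' DESeq2 fold changes and p-values was used only to pair identifiers with symbols. Depth was 8488129 to 19514904 counts per library, so genes such as Pik3cd rest on few reads.

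Genes with a size factor normalized row sum above 45 were kept and compared with edgeR 4.0.16 (TMM, quasi-likelihood test, Benjamini-Hochberg adjustment, threshold 0.05) without covariates. For single members an exact permutation test, two-sided, of log2 CPM was added. Exon lengths came from the union of exons of the GENCODE basic annotation of GRCm38, and positions and sequences from RefSeq for GRCm38.p6. The fit was tested on simulated data. Every pair of libraries of the same genotype differed by more than sampling noise. Labels and methods do not say more on replicates than 1 mouse per library.

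The members and gene lists were chosen with earlier results of these data known. The values of some listed genes are not reported here, and those genes were left out of the counts of their lists. The rule for named genes took all 10 members, pathway genes that were called or did not overlap, then those with the smallest p up to 15, and the 5 genes most like Pik3r1. Called genes of the FOXO, insulin and white adipocyte lists, Cat, Lep, Hoxc8 and Nnat were named after their values were seen. Alternatives were DESeq2 1.42.0, limma-voom (limma 3.58.1), other scalings and filters, a replicate block, a stricter threshold, other ways to form the balance, and leaving out each library. A balance with the exons of all annotated transcripts, which gave a log2 difference of -0.46, was added after the data were seen.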

Additional observations from a re-analysis of the deposited data

Results flagged for a closer look

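Irs1 stood apart in 1 library of each genotype. It was 218 CPM in control 1, against 52.7 to 92.1 CPM in the other controls. In Stat5Adipoq replicate 2 it was 115 CPM, against 48.2 to 60.7 CPM in the other Stat5Adipoq libraries. In each case the gap to the nearest library was above Dixon's 95% critical value for 5 samples. Such gaps were sought in 22 groups of 5 libraries, and chance gives about 1 in 20. Irs2 was also highest in these 2 libraries within their genotypes, at 267 and 142 CPM, and its gaps were below that value.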

How the results depend on the processing

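Pik3r1 was lower and past the threshold of 0.05 in all 17 alternative fits. Genes called numbered 368, and 660 with DESeq2, 273 with a replicate block, 118 at an adjusted p under 0.01 and 185 to 443 with 1 library left out. Members called numbered 1, 2 with DESeq2 and 0 at an adjusted p under 0.01. Pathway genes called numbered 2, and 3 with DESeq2. They numbered 1 each with limma-voom, with library size only and with the replicate block. At an adjusted p under 0.01 they numbered 0, and with 1 library left out 0 to 2. The balance had a log2 difference of -0.48, with a range of -0.54 to -0.36 when 1 library was left out. It was -0.68 without division by length and -0.64 with coding length. Among the alternatives tried the balance reversed only without Pik3r1, to 0.15, with overlapping genotypes. Changes of sign occurred for members near 0. Pik3r2 was -0.0035 with library size only and -0.044 to 0.089 with 1 library left out, Pik3r3 -0.063 to 0.13, Insr -0.053 to 0.050 and Akt2 -0.035 to 0.012. Pairs of the same replicate number had correlations of -0.26 to 0.19 between their deviations, so the numbers were not taken to pair mice, and the block is given only here. With the block, the adjusted p in edgeR was 0.023 for Pik3r1 and 0.11 for Ptprf. The cause of the other differences was not tested. The spread between mice limits Irs1 and Irs2, and depth limits Pik3cd and, among the pathway genes, Ptprf, Pik3r5 and Pik3cg.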
